A study of Mus musculus with 15 samples.

Results

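The genes described here are the Sox and Fox transcription factors, taken as every symbol in the deposited table made of Sox and a number, or of Fox, one letter and a number. The rule found 46 genes, 12 Sox and 34 Fox, among 17454. SOX proteins bind DNA through an HMG box, which bends the helix, and FOX proteins through a forkhead domain, a winged helix. Several of them set cell identity in the embryo: SOX7 and SOX18 act in blood vessel endothelium, from which the first definitive blood cells arise, and SOX6 acts in red cell maturation. FOXO factors respond to insulin and growth factor signals, and FOXM1 drives the genes of late cell cycle.

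The study asked how loss of *Ezh2*, which encodes the enzyme of the polycomb repressive complex PRC2, alters yolk sac (YS) erythro-myeloid progenitors (EMPs), an early wave of blood progenitors. RNA-seq libraries were made from EMPs sorted from YS of individual C57BL/6 embryos at E10.5, with 500 cells per library in the sample labels, whereas the methods of the study give a smaller input. The study gates EMPs on KIT, CD41 and CD16/32 among cells that lack SCA1 and markers of mature blood lineages. Levels were read from the RPKM (reads scaled by gene length and by library total) that the authors deposited, so they can be compared between genes. Every embryo, controls included, was homozygous for a floxed *Ezh2* allele (Ezh2fl/fl). Tie2-Ezh2-KO embryos carried Tie2-Cre, which acts in endothelium and thus also in the cells that derive from it (n = 5, replicates 7, 9, 11, 13 and 17). Vav-Ezh2-KO embryos carried Vav-Cre (named Vav-iCre in the study), which acts in hematopoietic cells once they have formed (n = 5, replicates 1, 9, 10, 26 and 28). The controls lacked Cre and came from both lines, Tie2-Ezh2-WT (n = 3, replicates 4, 10 and 12) and Vav-Ezh2-WT (n = 2, replicates 4 and 6). These 5 libraries are called WT here, and both knockouts were read against them, so that the comparisons share their controls. The experiment in which each library was made is not given in the labels, so no batch could be included in a fit, and batch and group cannot be told apart. These are bulk samples, in which fewer cells of a type and less RNA per cell cannot be told apart.

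Recovered reads on genes numbered 10407398 to 41025074 per library, with a median of 16091836. *Ezh2* (chr6:47530274-47595270, GRCm38) was at 36.9, 39.5 and 30.1 RPKM in Tie2-Ezh2-WT replicates 4, 10 and 12 and at 42.0 and 41.5 RPKM in Vav-Ezh2-WT replicates 4 and 6. In Tie2-Ezh2-KO it was at 27.8, 26.2, 24.8, 29.5 and 26.5 RPKM in replicates 7, 9, 11, 13 and 17, below each WT library. In Vav-Ezh2-KO it was at 33.7, 42.4, 37.8, 38.1 and 34.0 RPKM in replicates 1, 9, 10, 26 and 28, overlapping the WT range. The Tie2-Ezh2-KO level fell by 0.48 (log2 of RPKM + 0.2, SE 0.12, limma adjusted p = 0.0418, exact permutation p = 0.00794), and the Vav-Ezh2-KO difference was -0.02 (95% interval -0.25 to 0.21, adjusted p = 0.969). A value over the whole gene also counts reads from exons outside a deletion, so it does not check the Vav-Ezh2-KO labels. The Tie2-Ezh2-KO call was lost, with adjusted p from 0.0760 to 0.126, without any one of Tie2-Ezh2-KO replicates 7, 11 and 17, Tie2-Ezh2-WT replicates 4 and 10, or Vav-Ezh2-WT replicates 4 and 6. It was also lost against the 3 Tie2-Ezh2-WT libraries alone (-0.39, adjusted p = 0.344), in limma without its trend of variance on level (0.0923) and in limma-voom on recovered reads (0.0826).

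Markers of EMPs were high in every library. Of 10 listed, 9 were in the table, summing to 629.6 ± 48.9 RPKM in WT (mean ± SD, n = 5), 664 ± 49.4 in Tie2-Ezh2-KO and 579.9 ± 61.9 in Vav-Ezh2-KO, and *Gfi1b* was the most abundant in WT. *Kit*, a marker of the sort, was at 28.6 ± 2.24, 28.0 ± 11.6 and 25.2 ± 7.80 RPKM. No EMP marker passed limma's adjusted p of 0.05 against WT in Tie2-Ezh2-KO, where 4 of 9 had an unadjusted p below 0.05 and the median difference was -0.20 against 0.01 over the genes tested, or in Vav-Ezh2-KO, with 0 of 9 and a median of -0.15 against -0.02. Between the knockouts *Gfi1b* alone of these markers was called, higher in Tie2-Ezh2-KO (difference 0.57), and that call was lost, with adjusted p from 0.0506 to 0.0833, without any one of Tie2-Ezh2-KO replicates 7 and 11 or Vav-Ezh2-KO replicates 1, 9, 10 and 28. It was also lost with no filter on low values (0.0605), with a common median (0.114) and without limma's trend (0.101).

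A pair of libraries stood apart by markers of visceral endoderm, the layer that covers the YS. The 9 listed markers summed to 174 RPKM in Tie2-Ezh2-WT replicate 4 and 253 RPKM in Tie2-Ezh2-KO replicate 7, against 1.74 to 13.4 RPKM in the other 13 libraries. *Apoa1* was the most abundant in WT. *Amn*, which encodes part of an endocytic receptor complex, was the called gene of this list, higher in Tie2-Ezh2-KO than in WT (3.01, SE 0.45, adjusted p = 0.00155) and than in Vav-Ezh2-KO (3.42, SE 0.33, adjusted p = 0.000149). The medians over the list were 0.44 in Tie2-Ezh2-KO against WT, -1.11 in Vav-Ezh2-KO against WT and 1.71 between the knockouts, against 0.01, -0.02 and 0.04 over the genes tested. Those against WT include Tie2-Ezh2-WT replicate 4, where *Apoa1* was at 47.6 RPKM, against 0.668 to 2.09 RPKM in the other WT libraries. Those with Tie2-Ezh2-KO include its replicate 7, where *Apoa1* was at 71.7 RPKM. *Cubn* was tested through that library alone (0.637 RPKM), which raises the medians with Tie2-Ezh2-KO by construction. None of these medians is read as a difference between groups.

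Markers of mesenchyme and neural ectoderm were low. The 9 mesenchyme markers summed to 1.43 to 3.54 RPKM per library, with *Pdgfrb* the most abundant in WT, *Pdgfra* listed at 0 in WT and Tie2-Ezh2-KO and *Col3a1* at 0 in Vav-Ezh2-KO. Of 8 neural markers 5 were in the table, summing to 0.0567 to 0.675 RPKM, with *Nes* the most abundant and *Nkx2-2*, *Olig2* and *Hes5* listed at 0 in WT and Vav-Ezh2-KO. By limma 0 of 5 tested mesenchyme markers were called in Tie2-Ezh2-KO against WT (1 below an unadjusted 0.05, median difference -0.17 against 0.01 over the genes tested), and 0 of 3 tested neural markers were (0 below an unadjusted 0.05, median 0.21). Of these 3, *Olig2* and *Hes5* were tested because 1 Tie2-Ezh2-KO library each exceeded 0.2 RPKM (0.206 and 0.212). They raise that median by construction. Neither list had a called gene in the other comparisons, with at most 1 marker below an unadjusted 0.05 in each.

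Of 9 macrophage markers 8 were in the table, with *Cd68* the most abundant, *C1qa* at 0 in each library and a summed level of 20.3 ± 6.59 RPKM in WT, 16.5 ± 4.80 in Tie2-Ezh2-KO and 23.2 ± 1.99 in Vav-Ezh2-KO. Of the macrophage markers 1 was called, *Cd68*, lower in Tie2-Ezh2-KO than in Vav-Ezh2-KO (-0.71, SE 0.17, adjusted p = 0.0333), where the list median was -0.31 against 0.04. Its call was lost, with adjusted p from 0.0508 to 0.0940, without any one of Tie2-Ezh2-KO replicates 7, 11 and 17 or Vav-Ezh2-KO replicates 1, 26 and 28, and with no filter (0.0513), without the trend (0.0622) and in limma-voom (0.0852). Of 7 megakaryocyte markers 1 was called, *Gp1ba*, a platelet receptor subunit, lower in Tie2-Ezh2-KO than in WT (-0.94, SE 0.24, adjusted p = 0.0495), where the list median was -0.08 against 0.01. That call was lost, with adjusted p from 0.0640 to 0.146, without any one of Tie2-Ezh2-KO replicates 7, 9, 11 and 17, Tie2-Ezh2-WT replicates 4 and 10, or Vav-Ezh2-WT replicates 4 and 6. It was lost as well, with adjusted p from 0.0605 to 0.231, with a pseudocount of 1, with no filter, without the trend, in limma-voom and against Tie2-Ezh2-WT by itself. The part of any of these cell types in the Sox and Fox values was not tested.

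The levels of the Sox and Fox genes in WT EMPs spanned a wide range. Their mean over the 5 WT libraries was above 5 RPKM for 5 genes, between 1 and 5 RPKM for 7, between 0.2 and 1 RPKM for 6, above 0 and up to 0.2 RPKM for 13 and 0 for 15. *Foxm1* was highest at 8.32 ± 1.57 RPKM, which exceeded the mean of 66.5% of the genes in the table. It was followed by *Foxn3* at 7.53 ± 1.79, *Foxk2* at 6.66 ± 2.59, *Foxh1* at 5.98 ± 1.6, *Foxp1* at 5.33 ± 1.64 and *Foxn2* at 4.84 ± 2.01 RPKM, and neighbours in this order differed by less than their SD. Next came *Foxr1* at 3.19 ± 1.08, *Foxj3* at 2.90 ± 0.570, *Sox18* at 2.43 ± 1.61 and *Foxo1* at 1.25 ± 0.109 RPKM, the first 3 of which were also within their SD of each other. *Sox18* was the most abundant Sox gene in WT, and the 9 other genes of these 10 were Fox genes.

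**Figure D1:**
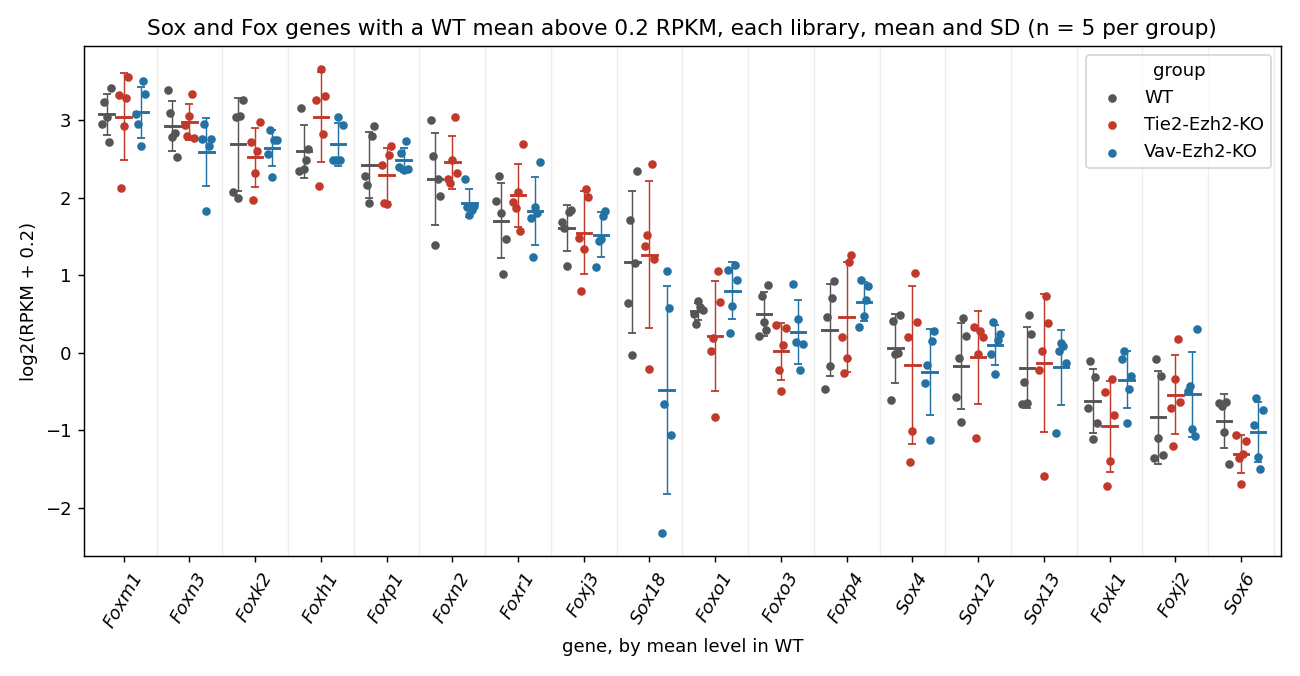
Level of the 18 Sox and Fox genes with a WT mean above 0.2 RPKM, on a log2(RPKM + 0.2) axis, ordered by WT mean, with 1 point per library, a bar at each group mean and whiskers of 1 SD (n = 5 per group). *Foxm1* comes first with a WT mean of 8.32 RPKM, the groups overlap for each gene, and the *Sox18* points of Vav-Ezh2-KO reach from 0 to 1.87 RPKM.

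The number of Sox and Fox genes detected per library depended on the floor. A Sox or Fox gene exceeded 0.2 RPKM in 18 ± 0.707 cases per WT library, in 18.2 ± 1.30 per Tie2-Ezh2-KO library and in 18.4 ± 0.548 per Vav-Ezh2-KO library. Above 0.1 RPKM there were 19.4 ± 1.14, 23.2 ± 1.92 and 20 ± 1 of them in the same order, and with at least 1 read 24.4 ± 1.14, 27.2 ± 2.59 and 22.6 ± 1.14. Over all genes the numbers above 0.1 RPKM were 12376 ± 132, 12829 ± 231 and 12404 ± 117, and those with a read 13374 ± 156, 13853 ± 361 and 13434 ± 132, also highest in Tie2-Ezh2-KO. The Fox genes summed to 49.6 ± 7.12 RPKM in WT, 52.3 ± 10.8 in Tie2-Ezh2-KO and 47.8 ± 4.92 in Vav-Ezh2-KO. The Sox genes summed to 5.36 ± 2.15, 5.89 ± 2.77 and 3.55 ± 0.908 RPKM. The lowest total of both families, 39.4 RPKM, was in Tie2-Ezh2-KO replicate 9, which also had the lowest mean correlation with its own group (0.966 across 8392 genes, which are not independent replicates). Tie2-Ezh2-KO replicates 13 and 17 had the highest totals, 69.9 and 68.5 RPKM.

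Limma was fitted over each gene above 0.2 RPKM in at least 1 library of a comparison. Of the 46 genes 25 passed this floor and 21 did not in any library. *Sox11*, *Sox7*, *Foxa2*, *Foxs1* and *Foxa3* passed it through Tie2-Ezh2-KO libraries alone, so that their being tested depended on being high there. In Tie2-Ezh2-KO against WT 0 of the 25 tested Sox and Fox genes were called by limma, where 2.73% of 14154 genes were (343 higher and 43 lower, or 179 and 8 against the 3 controls of its own line). The unadjusted p was below 0.05 for 1 of them, *Sox11*, against 11% of the genes tested, and limma-voom on recovered reads also called 0, with 1 below an unadjusted 0.05. In Vav-Ezh2-KO against WT 0 of 20 were called, where 0.00733% of 13646 genes were, which is 1 gene. The unadjusted p was below 0.05 for 1, *Sox18*, against 7.93% of the genes tested, and limma-voom called 0, with 1 below an unadjusted 0.05. The median difference was 0.06 over the 25 genes in Tie2-Ezh2-KO, against 0.01 over the genes tested, but the 5 genes that passed through this group alone raise it by construction. With a filter on the mean level it was 0.01 over 18 genes, against 0.00. In Vav-Ezh2-KO it was 0.02 over the 20, against -0.02. The direction of these medians depended on the settings. Against its own 2 controls the Vav-Ezh2-KO median was -0.18, against -0.04 over the genes tested. The Tie2-Ezh2-KO median was 0.15 against its own 3 controls, and 0.02 over the genes tested. With quantile normalization it was -0.02, against -0.03.

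The knockouts were also compared with each other. Such a comparison also holds any difference between the lines, so it does not isolate the stage at which *Ezh2* was lost, while the interaction below takes each line's own controls off. *Foxp1*, for example, was at 4.18 ± 0.532 RPKM in Tie2-Ezh2-WT (n = 3) and 7.06 ± 0.495 in Vav-Ezh2-WT (n = 2). Limma called 0 of 25 Sox and Fox genes, where 3.51% of 14120 genes were called (372 higher and 123 lower in Tie2-Ezh2-KO). Unadjusted p was below 0.05 for 3, *Sox18*, *Sox11* and *Foxn2*, against 16.6% of the genes tested, while limma-voom called 1, *Sox11*, one of those that passed the floor through Tie2-Ezh2-KO alone, and gave 4 below an unadjusted 0.05. The number of genes called in all was 495, and it was 969 without Tie2-Ezh2-KO replicate 9 and 320 without Vav-Ezh2-KO replicate 28. The interaction, the difference between Tie2-Ezh2-KO and its own 3 controls less that between Vav-Ezh2-KO and its own 2, called 0 of 25, where 0.181% of 14394 genes were called, which is 26 genes. That number was 2 in limma-voom, 78 with array weights and 8 without Vav-Ezh2-WT replicate 6. Its unadjusted p was below 0.05 for 1, *Sox18*, against 6.54% of the genes tested, and limma-voom called 0, with 4 below an unadjusted 0.05. The median over the 25 was 0.28 in the interaction, against 0.06 over the genes tested, with 17 of them above 0. Those that passed the floor through Tie2-Ezh2-KO alone were tested because they were high there, which favours values above 0 by construction. With a filter on the mean level the median was 0.32 over 18 genes, against 0.05, with 11 of the 18 above 0. No share above 0 over all genes tested is given beside these counts, so they are not read as a shift. The count of 0 does not show equal levels: the 95% intervals reached a median of 0.60 to each side in Tie2-Ezh2-KO against WT (0.41 to 1.04), 0.59 in Vav-Ezh2-KO against WT (0.39 to 1.24) 0.63 between the knockouts (0.43 to 1.26) and 0.997 in the interaction (0.68 to 2.15), on the log2(RPKM + 0.2) scale, which understates differences of low genes.

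**Figure D2:**
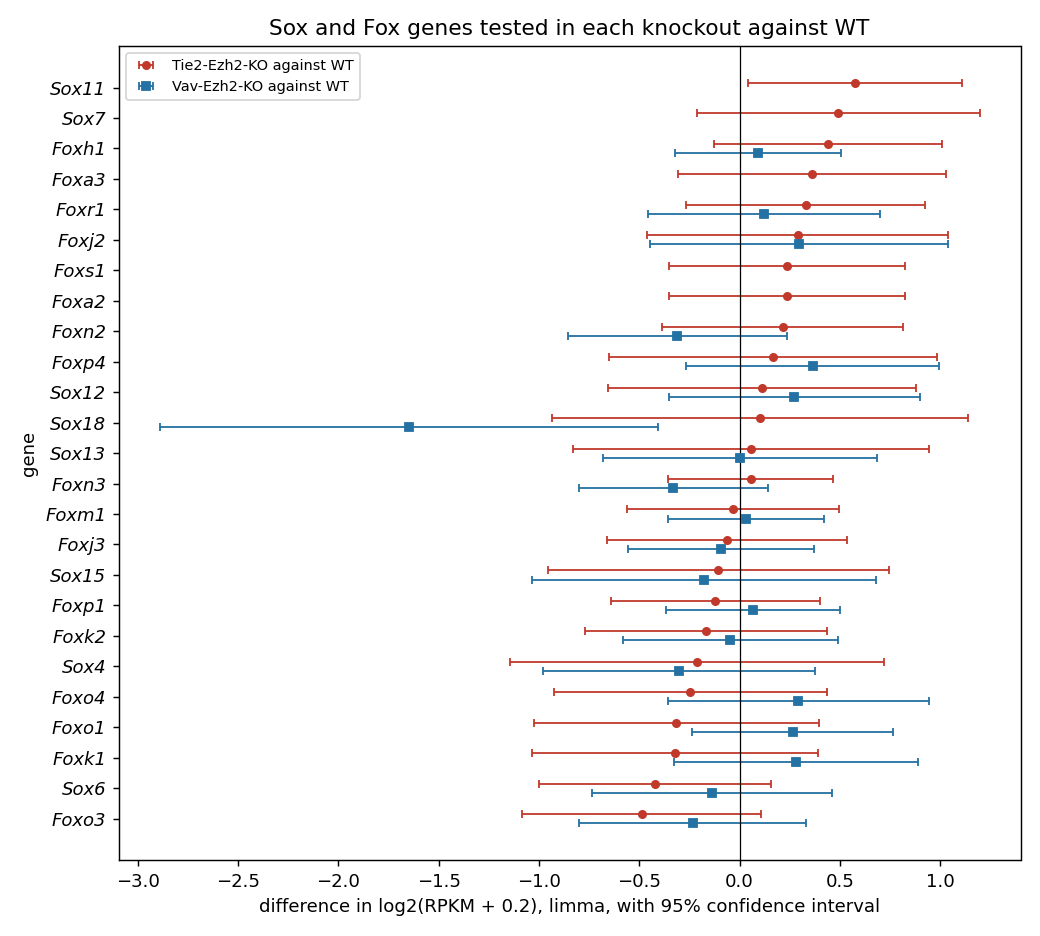
Difference in mean log2(RPKM + 0.2), by limma with its 95% confidence interval, of each Sox and Fox gene tested in Tie2-Ezh2-KO against WT (circles, 25 genes) and in Vav-Ezh2-KO against WT (squares, 20 genes). The *Sox18* difference in Vav-Ezh2-KO is -1.65, with an interval of -2.89 to -0.41, and no gene passed an adjusted p of 0.05.

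Of the SoxF genes, which act in endothelium and in lymphatic vessels, *Sox7* and *Sox18* were in the table. *Sox17* was not in it, so its level is unknown here. Between *Sox7* and *Sox18* the abundant one was *Sox18* (chr2:181669837-181671640). It was at 1.37, 3.09 and 0.783 RPKM in Tie2-Ezh2-WT replicates 4, 10 and 12 and at 2.03 and 4.86 RPKM in Vav-Ezh2-WT replicates 4 and 6. Tie2-Ezh2-KO replicates 7, 9, 11, 13 and 17 had 2.40, 2.67, 0.667, 5.2 and 2.11 RPKM. Vav-Ezh2-KO replicates 1, 9, 10, 26 and 28 had 0, 0.436, 1.87, 1.29 and 0.280 RPKM, from 0, 13, 51, 24 and 13 reads. Thus 3 Vav-Ezh2-KO libraries lay below each library of the other groups, while replicates 10 and 26 overlapped them. The difference was -1.65 in Vav-Ezh2-KO against WT (SE 0.58, 95% interval -2.89 to -0.41, limma adjusted p = 0.544, exact permutation p = 0.0476) and 0.10 in Tie2-Ezh2-KO against WT (SE 0.48, -0.94 to 1.14, adjusted p = 0.981). Between the knockouts it was 1.75 (SE 0.59, 0.49 to 3.00, adjusted p = 0.128, exact permutation p = 0.0476) and the interaction was 2.72 (SE 1.02, 0.57 to 4.87, adjusted p = 0.565). The differences that involve Vav-Ezh2-KO (against WT, between the knockouts and in the interaction) depended on the scale, at -0.93, 1.01 and 1.72 with a pseudocount of 1 and at -2.82, 3.18 and 4.54 in limma-voom. The exact permutation tests here are two-sided over 252 divisions of 10 libraries, give no p below 0.00794, and are printed without adjustment for the 70 run on Sox and Fox genes.

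*Sox7* (chr14:63943706-63950732), which is on early in hemogenic endothelium and goes down as blood cells form, was listed at 0 in 13 libraries. It had 0.455 RPKM (22 reads) in Tie2-Ezh2-KO replicate 11 and 0.137 RPKM (12 reads) in Tie2-Ezh2-KO replicate 13. In WT 3 reads over the group would correspond to 0.00900 RPKM and in Vav-Ezh2-KO to 0.00885 RPKM, counting error alone considered. The other 3 Tie2-Ezh2-KO libraries were at 0 like WT, so the groups overlapped (exact permutation p = 0.444).

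Endothelial markers were set beside these genes. The 8 markers, all in the table, summed to 163 ± 12.1 RPKM in WT, 162 ± 9.18 in Tie2-Ezh2-KO and 145 ± 14.5 in Vav-Ezh2-KO, most of it *Egfl7*, and *Cdh5*, which defines endothelial junctions, was at most 0.349 RPKM in any library. By limma none of the 8 was called in the 3 comparisons between groups, with 2, 1 and 4 below an unadjusted 0.05 in Tie2-Ezh2-KO against WT, in Vav-Ezh2-KO against WT and between the knockouts, and with medians of 0.18, -0.23 and 0.27 against 0.01, -0.02 and 0.04 over the genes tested. The differences were above 0 for 5, 3 and 6 of the 8 and below 0 for the others. In the interaction 0 of the 8 were called, with 0 below an unadjusted 0.05, 5 above 0 and a median of 0.51 against 0.06. *Emcn*, an endothelial sialomucin, was at 1.48 ± 1.06, 2.54 ± 1.15 and 0.757 ± 0.803 RPKM in WT, in Tie2-Ezh2-KO and in Vav-Ezh2-KO, while *Pecam1*, which encodes the junction protein CD31, was at 18.2 ± 3.13, 11.97 ± 3.01 and 20.0 ± 5.95 RPKM. The part of endothelial cells in the *Sox18* and *Sox7* values was not tested.

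Endothelial genes linked to SOXF or FOXC factors, not all of them as targets, were taken as a list of 16. Its most abundant gene in WT was *Tek* at 7.44 ± 1.44 RPKM. In Tie2-Ezh2-KO against WT limma called 1 of 14 tested, as higher, and 2 had an unadjusted p below 0.05. The differences were above 0 for 11 of the 14 and below 0 for 3, with a median of 0.19 against 0.01 over the genes tested. *Dll4* and *Efnb2* passed the floor through 1 Tie2-Ezh2-KO library each, at 0.236 and 0.268 RPKM. They raise the list medians of the comparisons with Tie2-Ezh2-KO by construction. The called gene was *Etv2*, a factor of the earliest endothelial and blood progenitors, at 0.740 ± 0.243 RPKM in WT, 2.39 ± 0.845 in Tie2-Ezh2-KO and 1.49 ± 0.940 in Vav-Ezh2-KO. Each Tie2-Ezh2-KO library, from 1.29 to 3.25 RPKM, was above the highest WT library at 1.09 RPKM, and the difference was 1.43 (SE 0.31, adjusted p = 0.0204). The call was lost without Tie2-Ezh2-KO replicate 13 (adjusted p = 0.0550) or 17 (0.0543), or Vav-Ezh2-WT replicate 4 (0.0526) or 6 (0.0585), and also against Tie2-Ezh2-WT by itself (1.25, 0.164) and in limma-voom (0.0731). In Vav-Ezh2-KO against WT 0 of 12 were called (0 below an unadjusted 0.05, median -0.11 against -0.02), between the knockouts 0 of 14 (2 below, median 0.32 against 0.04) and in the interaction 0 of 14 (1 below, median 0.36 against 0.06). *Dll4* and *Hey2*, which mark arteries, were listed at 0 in WT.

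The SoxC genes act in progenitors of many tissues. *Sox11* (chr12:27334268-27342718) was low throughout. It was at 0.114, 0.0225 and 0.0115 RPKM in Tie2-Ezh2-WT replicates 4, 10 and 12 (10, 3 and 4 reads) and at 0.00795 and 0.0771 RPKM in Vav-Ezh2-WT replicates 4 and 6 (1 and 13 reads). In Tie2-Ezh2-KO it was at 0.134, 0.139, 0.168, 0.282 and 0.110 RPKM in replicates 7, 9, 11, 13 and 17, from 18, 18, 21, 64 and 15 reads. In Vav-Ezh2-KO it was at 0.0670, 0.0321, 0.0211, 0 and 0 RPKM in replicates 1, 9, 10, 26 and 28, from 16, 5, 3, 0 and 0 reads. Each Tie2-Ezh2-KO library was thus above each Vav-Ezh2-KO library, which was the case, in that direction, for 3.56% of the genes tested, and 1 WT library reached into the Tie2-Ezh2-KO range. *Sox11* passed the floor through 1 Tie2-Ezh2-KO library, replicate 13, so it was tested because it was high there, and its p-values are given as a description that supports no difference. The difference was 0.57 in Tie2-Ezh2-KO against WT (SE 0.25, 95% interval 0.04 to 1.11, adjusted p = 0.389, exact permutation p = 0.0159) and 0.70 between the knockouts (SE 0.24, 0.19 to 1.21, adjusted p = 0.134, exact permutation p = 0.00794). Limma-voom gave an adjusted p of 0.0320 for the latter, and over the alternative settings, in which 3 made the call, it ranged from 0.0301 to 0.378.

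*Sox4* (chr13:28948919-28953699) was at 0.877 ± 0.302 RPKM in WT, 0.878 ± 0.675 in Tie2-Ezh2-KO and 0.690 ± 0.298 in Vav-Ezh2-KO. Its Tie2-Ezh2-KO libraries ran from 0.177 to 1.84 RPKM and covered the range of the others. *Sox12* (chr2:152393611-152398046) was at 0.740 ± 0.339, 0.818 ± 0.325 and 0.887 ± 0.186 RPKM. Its controls were at 0.524 ± 0.212 RPKM in Tie2-Ezh2-WT and 1.06 ± 0.145 in Vav-Ezh2-WT. Against the latter alone the Vav-Ezh2-KO difference was -0.23, the reverse of its direction against WT. *Sox12* was lowest in Tie2-Ezh2-KO replicate 9, at 0.266 RPKM, the library that was also lowest for *Sox4*.

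Among SoxD genes, which lack a domain for activation of their own, *Sox6* (chr7:115470872-116040776) acts with BCL11A to silence embryonic globin genes in definitive red cells. It was at 0.442, 0.425 and 0.293 RPKM in Tie2-Ezh2-WT replicates 4, 10 and 12 and at 0.443 and 0.171 RPKM in Vav-Ezh2-WT replicates 4 and 6. Among the Tie2-Ezh2-KO libraries, replicates 7, 9, 11, 13 and 17 had 0.281, 0.193, 0.111, 0.206 and 0.256 RPKM. Among the Vav-Ezh2-KO libraries, replicates 1, 9, 10, 26 and 28 had 0.325, 0.467, 0.196, 0.154 and 0.398 RPKM. The Tie2-Ezh2-KO libraries were all below 4 of the 5 WT libraries, and Vav-Ezh2-WT replicate 6 lay among them. The difference in Tie2-Ezh2-KO against WT was -0.42 (SE 0.27, 95% interval -1.0 to 0.15, adjusted p = 0.703, exact permutation p = 0.0714). *Sox13* (chr1:133382300-133424459) was at 0.726 ± 0.345, 0.837 ± 0.50 and 0.714 ± 0.246 RPKM and *Sox5* at 0.0605 ± 0.0104, 0.0417 ± 0.0378 and 0.0751 ± 0.0454 RPKM in WT, in Tie2-Ezh2-KO and in Vav-Ezh2-KO.

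Erythroid genes of the SOX6 and BCL11A programme were a list of 12, of which 8 were in the table and 6 were tested. The most abundant in WT was *Gata1*, at 168 RPKM, and *Bcl11a* was at 6.11 ± 1.25, 5.81 ± 1.15 and 6.15 ± 0.307 RPKM in WT, in Tie2-Ezh2-KO and in Vav-Ezh2-KO. In Tie2-Ezh2-KO against WT limma called 2 of 6, both embryonic globin genes and both higher, and 3 had an unadjusted p below 0.05. *Hbb-y*, the other embryonic globin gene of the list, was tested there and not called. Of the 6 differences 5 were above 0 and 1 was below (median 0.55 against 0.01 over the genes tested). *Hba-x* (chr11:32276600-32278116) was at 0.316 to 2.67 RPKM in WT, at 38.4, 305, 339, 32.9 and 117 RPKM in replicates 7, 9, 11, 13 and 17 of Tie2-Ezh2-KO and at 0.697 to 8.51 RPKM in Vav-Ezh2-KO. The Tie2-Ezh2-KO libraries were each above the others, and the difference from WT was 6.33 (SE 0.62, adjusted p = 8.88e-05), a call that limma-voom did not make (6.38, adjusted p = 0.0787). *Hbb-bh1* (chr7:103841638-103843162) was at 114 ± 32.1, 274 ± 142 and 108 ± 39.7 RPKM, a difference of 1.18 (SE 0.29, adjusted p = 0.0441) in Tie2-Ezh2-KO against WT. That call was lost, with adjusted p from 0.0535 to 0.101, without any one of Tie2-Ezh2-KO replicates 7, 9 and 11 or of the 5 WT libraries. It was also lost, with adjusted p from 0.0544 to 0.246, with no filter, with a common median, without the trend, against Tie2-Ezh2-WT by itself (0.91) and in limma-voom.

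In Vav-Ezh2-KO against WT 0 of the 6 erythroid genes were called by limma, with 0 below an unadjusted 0.05 and a median of 0.08 against -0.02. Between the knockouts *Hba-x* (5.64, adjusted p = 0.000422) and *Hbb-bh1* (1.29, adjusted p = 0.0302) were higher in Tie2-Ezh2-KO, with a list median of 0.46 against 0.04. The *Hbb-bh1* call was lost, with adjusted p from 0.0575 to 0.0736, without any one of Tie2-Ezh2-KO replicates 7 and 11 or Vav-Ezh2-KO replicates 1, 9 and 10, and with no filter (0.0832) and without the trend (0.0922). The interaction called *Hba-x* (6.41, SE 1.24, adjusted p = 0.0457), with a list median of 0.48 against 0.06. It did so in 6 of 24 alternative settings, and the call was lost, with adjusted p from 0.0515 to 0.390, without any one of Tie2-Ezh2-KO replicates 9, 11 and 17, Vav-Ezh2-KO replicates 1, 10 and 28 or the 5 WT libraries. Among the other settings limma-voom gave an adjusted p of 0.731. The 7 markers of primitive erythroid cells in the table, of 8 listed, summed to 72.5 to 151 RPKM in WT, 200.2 to 865 in Tie2-Ezh2-KO and 66.0 to 160.0 in Vav-Ezh2-KO. *Hbb-bh1* was the most abundant in WT, *Hba-x* was above it in Tie2-Ezh2-KO replicate 9 (305 against 277 RPKM), and *Slc4a1* was listed at 0 in WT and Vav-Ezh2-KO. The same 2 globin genes were the called markers. The sort took cells without lineage markers, and the part of primitive erythroid cells in the *Sox6* values was not tested.

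Of the other Sox genes, *Sox15* was at 0.591 RPKM in Tie2-Ezh2-WT replicate 4, at 0.230 and 0.0546 RPKM in replicates 9 and 17 of Tie2-Ezh2-KO and at 0.229 RPKM in Vav-Ezh2-KO replicate 26, and was listed at 0 in the other 11 libraries. Its span shares 31 bases with that of *Mpdu1*, which was at 27.7 ± 3.88 RPKM in WT, and reads there cannot be told apart without strand. *Sox8*, a SoxE gene of neural crest and gonad, had reads in 4 libraries and was at most 0.145 RPKM. *Sox21*, a SoxB gene of neural tissue, was at 0.00982 RPKM in Tie2-Ezh2-KO replicate 13 and 0.0715 RPKM in Vav-Ezh2-KO replicate 9 and at 0 elsewhere.

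HMG-box factors outside the Sox family, 11 in the list and in the table, were led by *Tox4* at 29.5 RPKM in WT. In Tie2-Ezh2-KO against WT 0 of 9 tested were called by limma, 3 had an unadjusted p below 0.05, and the median was 0.28 against 0.01. In Vav-Ezh2-KO against WT 0 of 9 were called, 2 had an unadjusted p below 0.05, and the median was -0.02, as over the genes tested. Between the knockouts 1 of 9 was called, with a median of 0.28 against 0.04, and the interaction called 0 of 9, with 1 below an unadjusted 0.05 and a median of 0.57 against 0.06. The called gene was *Tcf7*, a nuclear partner of Wnt signalling, at 0.437 ± 0.276 RPKM in WT, 1.36 ± 0.689 in Tie2-Ezh2-KO and 0.284 ± 0.242 in Vav-Ezh2-KO (difference between the knockouts 1.68, SE 0.40, adjusted p = 0.0291, exact permutation p = 0.0159). Its call was lost, with adjusted p from 0.0671 to 0.0821, without any one of Tie2-Ezh2-KO replicates 7, 13 and 17 or Vav-Ezh2-KO replicates 1, 9 and 28, and with no filter (0.0609). *Lef1* and *Tox3* were listed at 0 in WT.

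The FoxO genes, which act downstream of AKT in stress response and quiescence, were at low to middle levels. *Foxo3* (chr10:42181845-42276695) was at 0.965, 1.47 and 1.12 RPKM in Tie2-Ezh2-WT replicates 4, 10 and 12 and at 1.02 and 1.63 RPKM in Vav-Ezh2-WT replicates 4 and 6. The Tie2-Ezh2-KO replicates 7, 9, 11, 13 and 17 had 1.09, 0.657, 0.514, 0.877 and 1.05 RPKM. Vav-Ezh2-KO replicates 1, 9, 10, 26 and 28 had 1.64, 0.902, 1.15, 0.662 and 0.880 RPKM. The Tie2-Ezh2-KO libraries lay in and below the lower part of the WT range, and the difference was -0.49 (SE 0.28, 95% interval -1.08 to 0.11, adjusted p = 0.632, exact permutation p = 0.0556).

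*Foxo1* (chr3:52268337-52350109) was narrow in WT, at 1.09 to 1.38 RPKM, and wide in Tie2-Ezh2-KO, at 0.365 to 1.88 RPKM. Its means were 1.25 ± 0.109 RPKM in WT, 1.08 ± 0.576 in Tie2-Ezh2-KO and 1.59 ± 0.418 in Vav-Ezh2-KO. The difference from WT was -0.32 (95% interval -1.03 to 0.39, adjusted p = 0.884) in Tie2-Ezh2-KO and 0.26 (-0.24 to 0.77, adjusted p = 0.807) in Vav-Ezh2-KO. Over the alternative settings the Tie2-Ezh2-KO difference ran from -0.52 to -0.05. *Foxo4* was at 0.173 ± 0.137, 0.112 ± 0.108 and 0.246 ± 0.117 RPKM in the 3 groups, and its difference between the knockouts was -0.54 (-1.17 to 0.10, adjusted p = 0.399). None of the 3 was called by limma in any of the 4 comparisons.

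FOXO targets were a list of 18 genes, each of them tested. In Tie2-Ezh2-KO against WT limma called 1, as lower, and 4 had an unadjusted p below 0.05. The differences were below 0 for 12 of the 18 and above 0 for 6, with a median of -0.07 against 0.01 over the genes tested. The called gene was *Cited2*, which encodes a modulator of CBP and p300, at 104 ± 14.9 RPKM in WT, 67.5 ± 4.66 in Tie2-Ezh2-KO and 90.3 ± 6.26 in Vav-Ezh2-KO. The 5 Tie2-Ezh2-KO libraries, at 61.0 to 72.5 RPKM, were below each library of the other groups, and the difference from WT was -0.62 (SE 0.11, adjusted p = 0.00665). In Vav-Ezh2-KO against WT 0 of 18 were called, 0 had an unadjusted p below 0.05, and the median was 0.03 against -0.02. Between the knockouts *Cited2* (-0.42, adjusted p = 0.0222) and *Gabarapl1*, an autophagy gene (-0.67, SE 0.13, adjusted p = 0.00966), were lower in Tie2-Ezh2-KO, with a list median of -0.14 against 0.04. The controls of the lines also differed in *Gabarapl1*, at 20.5 ± 2.87 RPKM in Tie2-Ezh2-WT and 28.4 ± 3.64 in Vav-Ezh2-WT, beside 17.6 ± 2.48 in Tie2-Ezh2-KO and 28.0 ± 3.30 in Vav-Ezh2-KO. That *Cited2* call was lost without Tie2-Ezh2-KO replicate 7 (adjusted p = 0.0655) or 11 (0.0531) or Vav-Ezh2-KO replicate 9 (0.0559) or 26 (0.0627), and without the trend (0.0838). The interaction called 0 of 18, with 2 below an unadjusted 0.05 and a median of -0.09 against 0.06.

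Of the FoxP genes, *Foxp1* (chr6:98925342-99522746), which acts in B cell and monocyte development, was at 5.33 ± 1.64 RPKM in WT, 4.83 ± 1.17 in Tie2-Ezh2-KO and 5.43 ± 0.646 in Vav-Ezh2-KO. Its intervals were among the narrower ones, -0.64 to 0.40 in Tie2-Ezh2-KO against WT and -0.37 to 0.50 in Vav-Ezh2-KO against WT. Beside the controls of their own lines the groups lay the other way. The Tie2-Ezh2-KO mean was above that of Tie2-Ezh2-WT (4.18 ± 0.532 RPKM). The Vav-Ezh2-KO libraries, at 4.90 to 6.41 RPKM, were all below the Vav-Ezh2-WT ones, at 6.71 and 7.41 RPKM. *Foxp4* was at 1.11 ± 0.496, 1.32 ± 0.744 and 1.40 ± 0.274 RPKM, and its difference in Vav-Ezh2-KO against WT, 0.37 (95% interval -0.26 to 1.0, adjusted p = 0.784), was the largest positive one of the 20 tested there. Against the 2 Vav-Ezh2-WT libraries alone it was -0.16, and *Foxp4* was at 0.798 ± 0.340 RPKM in Tie2-Ezh2-WT and 1.57 ± 0.191 in Vav-Ezh2-WT. *Foxp2* had reads in Tie2-Ezh2-WT replicate 4 (0.0272 RPKM) and Tie2-Ezh2-KO replicate 9 (0.120 RPKM). *Foxp3*, the factor of regulatory T cells, had 0.0128 RPKM in Vav-Ezh2-WT replicate 6 and was at 0 elsewhere. Its span shares 1435 bases with that of *Ccdc22*, which was at 21.9 ± 4.49 RPKM in WT, so that even these reads cannot be assigned to it with certainty.

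*Foxm1* (chr6:128362994-128375886), the factor of G2 and M phase genes, was the most abundant member in WT. It was at 7.55, 9.21 and 8.01 RPKM in Tie2-Ezh2-WT replicates 4, 10 and 12 and at 6.37 and 10.46 RPKM in Vav-Ezh2-WT replicates 4 and 6. Tie2-Ezh2-KO replicates 7, 9, 11, 13 and 17 had 9.83, 4.15, 7.36, 9.53 and 11.5 RPKM. Among the Vav-Ezh2-KO libraries, replicates 1, 9, 10, 26 and 28 had 8.23, 7.49, 6.12, 11.1 and 9.89 RPKM. The groups overlapped almost entirely, with the lowest value again in Tie2-Ezh2-KO replicate 9. The difference from WT was -0.03 (95% interval -0.56 to 0.50, adjusted p = 0.993) in Tie2-Ezh2-KO and 0.03 (-0.36 to 0.42, adjusted p = 0.977) in Vav-Ezh2-KO.

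FOXM1 targets of G2 and M phase were a list of 14 genes, each tested and led by *Ccnb1*, the cyclin of mitotic entry, at 437 ± 81.2, 465 ± 63.2 and 417 ± 19.7 RPKM in WT, in Tie2-Ezh2-KO and in Vav-Ezh2-KO. Limma called 0 of them in each of the 4 comparisons, with 0, 1, 0 and 0 below an unadjusted 0.05 in Tie2-Ezh2-KO against WT, Vav-Ezh2-KO against WT, the knockouts against each other and the interaction. The list medians were 0.09, -0.06, 0.14 and -0.20, against 0.01, -0.02, 0.04 and 0.06 over the genes tested.

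Of the FoxN genes, *Foxn2* (chr17:88440704-88490533) was at 7.79, 5.6 and 2.43 RPKM in Tie2-Ezh2-WT replicates 4, 10 and 12 and at 4.50 and 3.87 RPKM in Vav-Ezh2-WT replicates 4 and 6. Among the Tie2-Ezh2-KO libraries, replicates 7, 9, 11, 13 and 17 had 4.51, 4.35, 5.42, 8.01 and 4.78 RPKM. Vav-Ezh2-KO replicates 1, 9, 10, 26 and 28 had 4.53, 3.48, 3.22, 3.38 and 3.52 RPKM. Of the Vav-Ezh2-KO libraries 4 lay below each Tie2-Ezh2-KO library, and replicate 1 lay among them. The difference between the knockouts was 0.53 (SE 0.21, 95% interval 0.08 to 0.97, adjusted p = 0.207, exact permutation p = 0.0238), and in Vav-Ezh2-KO against WT it was -0.31 (-0.86 to 0.23, adjusted p = 0.788). *Foxn3* (chr12:99190081-99563667), a repressor that acts in cell cycle checkpoints, was at 7.53 ± 1.79, 7.75 ± 1.33 and 6.02 ± 1.57 RPKM, with its lowest value, 3.36 RPKM, in Vav-Ezh2-KO replicate 10 and a difference of -0.33 (-0.80 to 0.14, adjusted p = 0.722) in Vav-Ezh2-KO against WT. Its controls were at 8.40 ± 1.78 RPKM in Tie2-Ezh2-WT and 6.23 ± 0.939 in Vav-Ezh2-WT. Over the alternative settings the difference ran from -0.43 to -0.09. *Foxn4*, a gene of retina and spinal cord, had 0.0324 RPKM in Tie2-Ezh2-WT replicate 4 and was at 0 elsewhere.

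Of the FoxK genes, which repress autophagy genes, *Foxk2* had the higher level. *Foxk2* (chr11:121259987-121309900) was at 6.66 ± 2.59, 5.69 ± 1.5 and 6.09 ± 0.965 RPKM in WT, in Tie2-Ezh2-KO and in Vav-Ezh2-KO, and *Foxk1* at 0.470 ± 0.193, 0.352 ± 0.207 and 0.607 ± 0.190 RPKM. The *Foxk1* difference from WT was -0.32 (95% interval -1.04 to 0.39, adjusted p = 0.884) in Tie2-Ezh2-KO and 0.28 (-0.33 to 0.89, adjusted p = 0.835) in Vav-Ezh2-KO, and between the knockouts it was -0.60 (-1.30 to 0.09, adjusted p = 0.385). *Foxj3* was at 2.90 ± 0.570, 2.88 ± 1.07 and 2.71 ± 0.567 RPKM and *Foxj2* at 0.404 ± 0.258, 0.523 ± 0.26 and 0.534 ± 0.304 RPKM. *Foxj1*, the factor of motile cilia, was at 0 in each of the 15 libraries.

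*Foxh1* and *Foxr1* were among the more abundant members in WT. *Foxh1* (chr15:76667829-76671614), which carries Nodal signals with SMAD proteins, was at 4.85, 8.74 and 4.96 RPKM in Tie2-Ezh2-WT replicates 4, 10 and 12 and at 5.39 and 5.97 RPKM in Vav-Ezh2-WT replicates 4 and 6. The Tie2-Ezh2-KO replicates 7, 9, 11, 13 and 17 had 9.40, 4.22, 12.4, 6.85 and 9.67 RPKM. Among the Vav-Ezh2-KO libraries, replicates 1, 9, 10, 26 and 28 had 5.42, 5.39, 8.01, 5.40 and 7.44 RPKM. Of the Tie2-Ezh2-KO libraries 3 were above each WT library and replicate 9 was below each of them, and the difference was 0.44 (SE 0.27, 95% interval -0.13 to 1.01, adjusted p = 0.663, exact permutation p = 0.183). The gene span shares 368 bases with that of *Kifc2*, which was at 0.678 ± 0.215, 0.736 ± 0.169 and 0.802 ± 0.385 RPKM, a level below that of *Foxh1*. *Foxr1* (chr9:44434234-44440868) was at 3.19 ± 1.08, 4.02 ± 1.31 and 3.47 ± 1.15 RPKM, with a difference of 0.33 (SE 0.28, adjusted p = 0.840) in Tie2-Ezh2-KO against WT. Its controls were at 3.87 ± 0.694 RPKM in Tie2-Ezh2-WT and 2.19 ± 0.525 in Vav-Ezh2-WT. Over the alternative settings the difference ran from 0.02 to 0.47.

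The FoxA genes open chromatin in endoderm. *Foxa3* was at 0.0942 and 0.0310 RPKM in Tie2-Ezh2-WT replicates 4 and 10, at 0.339, 0.183 and 0.0305 RPKM in replicates 7, 13 and 17 of Tie2-Ezh2-KO, at 0.188 RPKM in Vav-Ezh2-KO replicate 28 and at 0 in the other 9 libraries. Its highest value, and its highest WT value, were in the same 2 libraries that had the high visceral endoderm sums of 253 and 174 RPKM, from 11 and 2 reads. Tie2-Ezh2-KO replicate 13 and Vav-Ezh2-KO replicate 28 had 10 and 11 *Foxa3* reads, with low sums of 5.93 and 3.08 RPKM. The part of endoderm cells in these values was not tested. *Foxa2* was at 0.254 RPKM in Tie2-Ezh2-KO replicate 11 alone. *Foxa1* was at 0.0635 and 0.117 RPKM in replicates 11 and 17 of Tie2-Ezh2-KO and at 0.111 RPKM in Vav-Ezh2-KO replicate 1, and at 0 in WT. The libraries with *Foxa1* or *Foxa2* reads had visceral endoderm sums of 5.01, 13.4 and 2.69 RPKM.

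Many of the low members had no read in any WT library. There were 15 of these, and 12 of the 15 had at least 1 read in a Tie2-Ezh2-KO library, where 55.7% of the 2125 genes without WT reads did. In Vav-Ezh2-KO 4 of the 15 had a read, where 38.4% of the 2125 genes did. At least 2 libraries had reads for 4 of the 15 in Tie2-Ezh2-KO and for 0 in Vav-Ezh2-KO, against 22.6% and 11% of the 2125 genes. At least 3 had them for 2 in Tie2-Ezh2-KO, *Sox30* and *Foxc1*, against 10.54%. The shares over the 2125 genes were also higher in Tie2-Ezh2-KO, although its 5 libraries held fewer reads on genes (88955403) than the Vav-Ezh2-KO libraries (103738761), so that the direction was not particular to the Sox and Fox genes. These counts were made without a test.

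The reads on these 15 genes were spread unevenly over the libraries. Tie2-Ezh2-KO replicates 7, 9, 11, 13 and 17 had reads on 2, 1, 6, 6 and 4 of the genes, and Vav-Ezh2-KO replicates 1, 9, 10, 26 and 28 on 2, 2, 0, 0 and 0. In all there were 142 reads in Tie2-Ezh2-KO and 20 in Vav-Ezh2-KO. Over the 2125 genes the same Tie2-Ezh2-KO libraries had reads on 398, 344, 312, 500 and 464, and the Vav-Ezh2-KO libraries on 232, 296, 182, 208 and 204. Tie2-Ezh2-KO replicate 11 thus had reads on the fewest genes of its group overall and on 6 Sox and Fox genes. Reads were found in Tie2-Ezh2-KO alone for 9 of the 15, in Vav-Ezh2-KO alone for 1 (*Foxe1*) and in both for 3 (*Foxa1*, *Sox21* and *Foxs1*), against 34.4%, 17.1% and 21.3% of the 2125 genes. The reverse, reads in WT and in neither knockout, held for 3 Fox genes, *Foxd4*, *Foxn4* and *Foxp3*, of the 13 members with a WT mean above 0 and up to 0.2 RPKM, against 10.7% of the 3490 such genes and 2.49% of the 15329 genes with WT reads at any level.

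**Figure D3:**
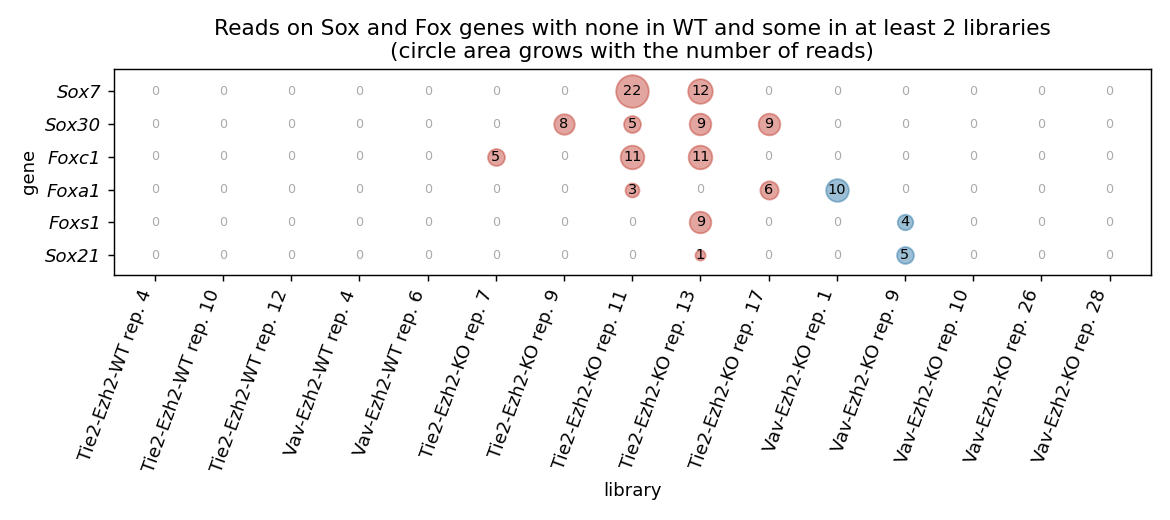
Reads in each library (horizontal axis) on the 6 Sox and Fox genes that had no read in any WT library and reads in at least 2 other libraries (vertical axis), with the number of reads written in each place and circles whose area grows with it. *Sox30* has reads in 4 Tie2-Ezh2-KO libraries and *Foxc1* in 3, and Vav-Ezh2-KO replicates 10, 26 and 28 have none on any of the 6.

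*Sox30* (chr11:45979069-46017992), which drives spermatid genes in the testis, was at 0, 0.175, 0.113, 0.112 and 0.187 RPKM in replicates 7, 9, 11, 13 and 17 of Tie2-Ezh2-KO, from 0, 8, 5, 9 and 9 reads. In the 5 WT and the 5 Vav-Ezh2-KO libraries it was at 0, where 3 reads over the group would correspond to 0.00981 and 0.00966 RPKM. *Foxc1* (chr13:31806646-31810635), a factor of vessel and mesoderm development, was at 0.0786, 0, 0.186, 0.103 and 0 RPKM in the Tie2-Ezh2-KO libraries in the same order, from 5, 0, 11, 11 and 0 reads. It was at 0 in WT and Vav-Ezh2-KO, where 3 reads would correspond to 0.00736 and 0.00725 RPKM. Neither reached 0.2 RPKM in any library, so neither was tested, and both were singled out after their values were seen.

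*Foxc1* lies in a cluster with *Foxq1* (chr13:31558170-31560976) and *Foxf2* (chr13:31625816-31631406). *Foxq1* was at 0.155 RPKM in Tie2-Ezh2-KO replicate 17 and *Foxf2* at 0.0158 RPKM in Tie2-Ezh2-KO replicate 13, and both were at 0 in the other 14 libraries. The pair *Foxf1* (chr8:121084386-121088154) and *Foxl1* (chr8:121127685-121130644), which act in gut and lung mesenchyme, had WT reads. *Foxf1* was at 0.0277 RPKM in Vav-Ezh2-WT replicate 4 and 0.0256 RPKM in Tie2-Ezh2-KO replicate 17, and *Foxl1* was at most 0.0641 RPKM, with reads in 4 WT libraries, 1 Tie2-Ezh2-KO library and 3 Vav-Ezh2-KO libraries. Of the remaining members, *Foxs1* was at 0.256 RPKM in Tie2-Ezh2-KO replicate 13 and 0.166 RPKM in Vav-Ezh2-KO replicate 9. *Foxe1* was at 0.0317 RPKM in Vav-Ezh2-KO replicate 1, and *Foxd2* was at most 0.0966 RPKM. *Foxd4* had 0.108 RPKM in Tie2-Ezh2-WT replicate 10 and 0.0286 RPKM in Vav-Ezh2-WT replicate 4. *Foxn1*, the factor of thymic epithelium, had 6 reads in Tie2-Ezh2-KO replicate 11 and *Foxr2* had 3 in Tie2-Ezh2-KO replicate 17, while *Foxd1* had none in any library.

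Of the 7 PRC2 genes, each tested and led by *Rbbp7* in WT, limma called 1 in Tie2-Ezh2-KO against WT, *Ezh2* itself, as lower. All 7 differences there were below 0 and 2 had an unadjusted p below 0.05, with a median of -0.33 against 0.01 over the genes tested. In Vav-Ezh2-KO against WT 0 of 7 were called by limma, with 1 below an unadjusted 0.05 and a median of -0.15 against -0.02. Between the knockouts *Ezh2* (-0.46, SE 0.11, adjusted p = 0.0269) and *Rbbp4*, a histone-binding subunit (-0.76, SE 0.13, adjusted p = 0.00478), were lower in Tie2-Ezh2-KO, with a median of -0.18 against 0.04. For *Rbbp4* the controls of the lines already differed, at 39.9 ± 0.998 RPKM in Tie2-Ezh2-WT and 60.6 ± 3.93 in Vav-Ezh2-WT, beside 35.8 ± 5.22 in Tie2-Ezh2-KO and 60.7 ± 8.91 in Vav-Ezh2-KO. The *Ezh2* call was lost, with adjusted p from 0.0571 to 0.0784, without any one of Tie2-Ezh2-KO replicates 7, 11 and 17 or Vav-Ezh2-KO replicates 9, 10 and 26, and without the trend (0.0695). The interaction called 0 of 7, with 0 below an unadjusted 0.05 and a median of -0.06 against 0.06.

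Promoter sequences from RefSeq (GRCm38.p6), 250 bases before to 50 after the gene start, were matched by symbol for 31 of the 46 genes. PRC2 binds at CpG-rich promoters. Some genes have several windows, and these were averaged per gene. The 31 genes had a median of 22 CG pairs per window, against 18 over the 12521 genes of the table with a window. Among genes with a WT mean above 0.2 RPKM the medians were 33 (13 members) and 21, and among the others 21 (18 members) and 9. The window of *Sox11* is shown because its Tie2-Ezh2-KO libraries were each above its Vav-Ezh2-KO libraries, and those of *Sox30* and *Foxc1* because these genes had reads in at least 3 Tie2-Ezh2-KO libraries and none in WT or Vav-Ezh2-KO. Capitals mark each CG pair. The *Sox11* window (minus strand, chr12:27342669-27342968) held 21, more than 57.3% of 12521 gene promoters, the *Sox30* window (plus strand, chr11:45980060-45980359) held 28, more than 77.6%, and lies within the gene span given above, which starts farther upstream, and the *Foxc1* window (plus strand, chr13:31806396-31806695) held 32, more than 85.6%.
Sox11: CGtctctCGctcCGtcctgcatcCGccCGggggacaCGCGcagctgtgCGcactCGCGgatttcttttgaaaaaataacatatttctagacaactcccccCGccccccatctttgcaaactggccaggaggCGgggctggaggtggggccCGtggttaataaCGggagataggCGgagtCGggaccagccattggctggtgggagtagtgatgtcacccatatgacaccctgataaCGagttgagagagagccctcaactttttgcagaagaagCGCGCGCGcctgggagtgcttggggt
Sox30: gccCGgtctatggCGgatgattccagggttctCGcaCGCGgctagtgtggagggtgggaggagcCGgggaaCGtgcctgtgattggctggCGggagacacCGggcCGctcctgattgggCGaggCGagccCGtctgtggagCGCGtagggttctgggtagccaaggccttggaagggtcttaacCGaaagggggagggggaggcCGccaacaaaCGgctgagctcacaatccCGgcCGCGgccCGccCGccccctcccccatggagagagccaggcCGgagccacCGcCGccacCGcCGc
Foxc1: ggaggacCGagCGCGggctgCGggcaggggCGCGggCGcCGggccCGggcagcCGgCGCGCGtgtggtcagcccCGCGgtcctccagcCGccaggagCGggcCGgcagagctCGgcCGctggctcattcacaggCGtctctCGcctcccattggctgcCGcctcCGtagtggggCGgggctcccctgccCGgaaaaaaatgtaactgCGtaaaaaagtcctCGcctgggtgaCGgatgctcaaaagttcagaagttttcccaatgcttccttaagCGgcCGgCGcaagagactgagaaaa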

How the data were processed

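RPKM per gene, as deposited by the authors, came from reads aligned to GRCm38 (mm10) with TopHat2 2.0.13 and counted with featureCounts per the submitters' processing notes, and the study tested counts with DESeq2. The libraries were single-end and not stranded. DESeq2 was not run here. Coordinates and overlaps of gene spans came from RefSeq (GRCm38.p6) and annotated transcript lengths from GENCODE on the same build. Low RPKM values were whole multiples of 1 read, so whole reads were recovered for 16877 of 17454 genes (tolerance 0.001 reads), the other 577 being at 0 throughout. Library totals came from 107 single-exon genes, and reads of genes above 0 in 3 or fewer libraries rest on annotated length. PCR reads without molecular identifiers are not independent molecules, so limits of a count of 0 cover counting error alone. Recovered totals were 10407398 to 41025074.

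Comparisons used limma 3.58.1 (lmFit, eBayes with trend, R 4.3.3) on log2(RPKM + 0.2). A gene was tested where any library of the comparison exceeded 0.2 RPKM. P-values were adjusted by Benjamini-Hochberg over the genes tested (threshold 0.05). Single genes were also compared by two-sided exact permutation tests (Python 3.11.15). The scripts were tested on simulated data. Alternatives were pseudocounts of 0.05 and 1, no filter, a filter on the mean, quantile normalization, a common median, each line's own WT libraries, eBayes without trend, array weights, limma-voom on recovered reads and leaving out each library. Text names members of the SoxF, SoxC, SoxD, FoxO, FoxP, FoxC, FoxF, FoxA, FoxK, FoxM1 and FoxH1 groups, the 10 most abundant in WT and the 5 largest differences each way per knockout. Of these groups *Sox17*, *Foxc2* and *Foxo6* were not in the table. Members and lists were chosen with earlier results of these data known. Some genes are not reported here.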

Additional observations from a re-analysis of the deposited data

Results flagged for a closer look

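In each of 75 groups of 5 libraries (25 Sox and Fox genes above 0.2 RPKM in a library, 3 groups each) the library farthest from the rest was looked for by its gap to the nearest other library relative to the range. Chance flags about 1 in 20 groups, a rate that does not hold for groups with 1 library above 0 and the other 4 at 0, which are always flagged. There were 10 flags, of which 6 were such groups, and *Foxa2* and *Foxs1* in Tie2-Ezh2-KO were among the 25 genes only through the library flagged. *Sox15* was at 0.591 RPKM in Tie2-Ezh2-WT replicate 4 and at 0.229 RPKM in Vav-Ezh2-KO replicate 26, with the other 4 libraries of each group at 0. *Foxs1* was at 0.256 RPKM in Tie2-Ezh2-KO replicate 13 and at 0.166 RPKM in Vav-Ezh2-KO replicate 9, again with the other 4 at 0. *Foxa2* was at 0.254 RPKM in Tie2-Ezh2-KO replicate 11 and *Foxa3* at 0.188 RPKM in Vav-Ezh2-KO replicate 28, each with the other 4 at 0.

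The remaining 4 were genes with reads in every library of the group. *Sox12* was at 0.266 RPKM in Tie2-Ezh2-KO replicate 9, against 0.791 to 1.06 RPKM in the other 4. *Sox13* was at 0.291 RPKM in Vav-Ezh2-KO replicate 1, against 0.71 to 0.891 RPKM, and *Foxn2* was at 4.53 RPKM in the same library, against 3.22 to 3.52 RPKM. *Foxn3* was at 3.36 RPKM in Vav-Ezh2-KO replicate 10, against 6.12 to 7.51 RPKM.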

How the results depend on the processing

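Of 24 results on single Sox and Fox genes, 19 had no call and no change of direction under the alternatives, among 495 values in all. The call that appeared was *Sox11* between the knockouts, so that the count of Sox and Fox genes called there was 1 with no filter on low values (adjusted p = 0.0301), with eBayes without trend (0.0361) and with limma-voom (0.0320), and 0 in the other alternatives. *Sox11* passed the main filter through Tie2-Ezh2-KO, where it is high, alone, so the calls without trend and with limma-voom support no difference. The call with no filter did not depend on that floor. It rests on low values, at most 0.282 RPKM in any library, and no difference is drawn from it either. Among the 24, directions reversed with each line's own WT libraries for *Foxo4* in Tie2-Ezh2-KO (0.0884) and for *Sox12* (-0.23), *Foxo4* (-0.21) and *Foxp4* (-0.16) in Vav-Ezh2-KO. *Foxp1* was not among the 24, and its mean RPKM in each knockout also lay the other way beside the controls of its own line. The cause was not tested. For *Sox18* the adjusted p ranged from 0.342 to 0.862 in Vav-Ezh2-KO against WT and from 0.0653 to 0.263 between the knockouts.

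Counts over the genes tested moved by more than 1.5 times as follows. With own WT libraries alone 187 genes were called in Tie2-Ezh2-KO (386 in the main comparison) and 2 in Vav-Ezh2-KO (1), where limma-voom called 0 and leaving out 1 library gave 1 to 2 (2 without Tie2-Ezh2-WT replicate 10 or 12 or Vav-Ezh2-WT replicate 4). Between the knockouts (495) array weights gave 765 and leaving out 1 library 320 (without Vav-Ezh2-KO replicate 28) to 969 (without Tie2-Ezh2-KO replicate 9). For the interaction (26) the count was 16 with no filter, 17 with a filter on the mean, 12 with quantile normalization, 16 with a common median, 78 with array weights and 2 with limma-voom, and leaving out 1 library gave 8 to 32. It was 17 or fewer without any one of the 5 WT libraries, Tie2-Ezh2-KO replicates 7, 11 and 17 or Vav-Ezh2-KO replicates 1, 10 and 28. Quantile normalization split the calls between the knockouts into 334 higher and 191 lower, against 372 and 123, and those of the interaction into 9 and 3, against 23 and 3. Of 18 called results on related genes and markers, 6 held in every alternative.

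Sox and Fox genes detected per library numbered 19.4 in WT, 23.2 in Tie2-Ezh2-KO and 20.0 in Vav-Ezh2-KO above 0.1 RPKM, and 12, 11.2 and 11.2 above 1 RPKM. No paired analysis was possible because the groups compared share fewer than 2 replicate numbers. Limits: groups hold 5 libraries of few sorted cells each, the WT libraries come from both lines, batches are not given, and genes with under 0.2 RPKM rest on few reads, so that a value of 0 in 1 library is weak evidence. Overlapping genes cannot be told apart without strand.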
